A study of Mus musculus with 6 samples.

Results

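The cytosolic ribosomal protein genes were 84 of the 55401 genes in the table. They were chosen by symbol, as protein-coding genes named Rpl or Rps with a digit, or Rplp0, Rplp1, Rplp2 and Rpsa, leaving out pseudogenes and the Rps6k kinases, and needed an FPKM (fragments per kilobase of transcript and 1000000 fragments) of 1 or more in 3 or more of the 6 libraries. Of 87 genes that met the name rule, Rpl3l, Rpl10l and Rps23rg1 fell below that minimum. Rpl39l was just inside it, at 1.59 to 2.80 FPKM, and Rps23rg1, just outside, reached 0.334 FPKM at most. By symbol, the 84 were sorted into 50 genes of the large (60S) subunit, 33 of the small (40S) subunit and Rps19bp1. Rps19bp1 matched the name rule although its product binds Rps19 and is not part of the ribosome. Whether the product of each other gene is part of the mature ribosome was not checked.

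Hepatic stellate cells, the vitamin A-storing pericytes of the liver that turn into fibre-forming myofibroblasts once cultured, were isolated from WT animals and from S100a16+/- animals, which keep 1 intact S100a16 allele, all on the C57BL/6J background. Each genotype gave 3 libraries, and all cells were grown for 7 days in medium with fetal bovine serum. The titles call the S100a16+/- libraries "S100KD". The labels give no age or sex and do not say whether replicates were separate animals, so p-values measure the spread between these libraries.

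Each ribosome carries a near-complete set of these proteins, most in a single copy, on a scaffold of ribosomal RNA. Their mRNAs begin with a pyrimidine tract, the terminal oligopyrimidine (TOP) motif, through which their translation follows nutrient and mTOR signalling. Mammalian genomes also hold many processed pseudogenes of these genes, intronless copies that can be so close to the parent that a short read cannot always be placed.

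Library totals ran from 61979103 to 76291481 counts. S100a16, the targeted gene, stood at 18.0, 17.7 and 30.0 FPKM in S100a16+/- replicates 1 to 3 and at 57.7, 58.8 and 56.8 FPKM in WT, and the groups did not overlap (exact two-sided permutation p = 0.1, the smallest that 3 against 3 allows). S100a16+/- replicate 3 stood apart. Its correlation with the other S100a16+/- libraries across genes was 0.930 and 0.929, against 0.987 between those 2 libraries and 0.981 to 0.985 among WT. Of 13 stellate cell markers (Acta2, Col1a1, Des and others) 10 passed the FPKM minimum, and Lrat, Reln and Rgs5 did not. Summed over the 13, the FPKM was 147 in this library, against 1104 and 1078 in its group and 937 to 1057 in WT. For 13 macrophage markers the sum was 13689, against 17918 and 19271 in its group and 10851 to 11445 in WT. For 12 hepatocyte markers it was 655, against 150 and 148 in its group and 233 to 273 in WT, and for 11 endothelial markers 1941, against 890 and 848 in its group and 1590 to 1748 in WT. Sums of 7 neutrophil markers (16.7 to 31.5, with Ly6g, Retnlg and S100a9 at 0 throughout) and 8 lymphocyte markers (0.723 to 3.85) were low in all libraries, and 5 cholangiocyte markers, mostly through Spp1, summed to 231, 220 and 81.0 in S100a16+/- and 35.0 to 40.9 in WT. Outside the rule for named genes, edgeR called 3 of the 13 macrophage markers (Adgre1, Marco and Cd5l) higher in S100a16+/-. It also called 1 neutrophil marker (S100a8) and Spp1 higher, and no marker of the other lists. Of all genes tested, 2.85% were called higher and 1.61% lower. The macrophage markers had log2 changes from -0.47 to 1.17. Without S100a16+/- replicate 3, 7 of these were called higher and 4 lower. Then 8 of 10 endothelial and 8 of 9 hepatocyte markers tested were called lower, and none higher. In that fit 15.8% of all genes were called higher and 16.4% lower. The part of these cell type markers in the results below was not tested. In bulk RNA, fewer cells of a type and less RNA per cell cannot be told apart.

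Rpl29, a large-subunit protein at the surface of the 60S particle that also occurs as a heparin-binding protein outside the ribosome, was the member on which the comparison of genotypes turned. Its gene lies on chr9:106429454-106431568, plus strand, with coordinates that are the same in GENCODE M21 (GRCm38). The exons of all its transcripts merge into 3 blocks, and no other annotated gene overlaps them. By sequence, 25 other genes in the table were taken as copies of it. They had at least 95% identity over at least 80% of its coding sequence. The match also had to lie on the same strand and make up at least 50% of the transcript of the copy. Gm3550 and Rpl29-ps2 fell short of that share. Uimc1, named here after its values were seen, matched 86.7% of the coding sequence at 99.8% identity, but on the opposite strand. It was left out, with 9532, 9621 and 7856 counts in S100a16+/- and 9140, 10184 and 10291 in WT. Whether reads of Rpl29 were placed on Uimc1 was not tested. Of the 25 copies, the one with the most counts was the processed pseudogene Gm13841 on chr5:115801677-115802159, minus strand. The first 300 bases of the Rpl29 coding sequence and of the aligned stretch of Gm13841 follow, from GENCODE M21, because the counts of Rpl29 can be read only beside those of its copies; capitals mark the bases at which they differ.
Rpl29: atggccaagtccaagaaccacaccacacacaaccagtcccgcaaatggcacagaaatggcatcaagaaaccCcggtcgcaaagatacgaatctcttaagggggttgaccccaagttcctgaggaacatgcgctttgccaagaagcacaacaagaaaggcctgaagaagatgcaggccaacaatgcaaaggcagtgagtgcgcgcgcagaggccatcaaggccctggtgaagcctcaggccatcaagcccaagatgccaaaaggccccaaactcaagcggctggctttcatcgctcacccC
Gm13841: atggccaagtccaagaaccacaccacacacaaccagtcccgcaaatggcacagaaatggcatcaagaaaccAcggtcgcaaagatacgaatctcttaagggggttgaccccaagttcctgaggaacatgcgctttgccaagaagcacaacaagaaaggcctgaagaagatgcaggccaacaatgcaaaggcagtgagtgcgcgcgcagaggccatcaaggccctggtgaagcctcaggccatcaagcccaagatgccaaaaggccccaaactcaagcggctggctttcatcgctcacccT

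Counted from the first base of the start codon, with the base of Rpl29 first, the differences over the whole coding sequence were C72A, C300T and T423C, 3 in 480 bases (99.4% identity). The longest identical run was 227 bases, longer than the 150-base reads. Gm10709, a processed pseudogene on chr9:7751725-7752204, plus strand, differed at G205A, C300T, T423C and G457A, with a longest identical run of 204 bases. A read that falls within such a run cannot be told apart by its sequence.

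Rpl29 was higher in S100a16+/- libraries by more than any other member. Its level was 114, 111 and 85.5 FPKM in S100a16+/- replicates 1 to 3 and 3.62, 1.72 and 3.60 FPKM in WT. Each S100a16+/- library was far above each WT library, S100a16+/- replicate 3 included. The mean was 104 ± 15.8 FPKM (SD, n = 3) against 2.98 ± 1.09 FPKM (SD, n = 3), a 34.7-fold ratio. Among the 84 members, Rpl29 ranked 49 by its S100a16+/- mean and 83 by its WT mean, where only Rpl39l was lower.

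In deposited counts, Rpl29 stood at 10134, 9714 and 6601 in S100a16+/- and at 299, 166 and 328 in WT. The log2 change of Rpl29 in counts was 5.17 (SE 0.35), with an adjusted p of 0.00440 in edgeR's quasi-likelihood test over 12766 genes. It was called in each fit that left out 1 library, with adjusted p from 0.000254 to 0.0438 in edgeR. Genes next to Rpl29 did not pass the test. Of 9 annotated neighbours within 60 kb, chosen after their values were seen, 7 were tested and 0 were called, with log2 changes from -0.19 (Acy1, an aminoacylase) to 0.19 (Abhd14a) and a lowest edgeR adjusted p of 0.343.

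The most counted copies of Rpl29 were near the same level in both groups. Gm13841 had 1836, 1832 and 1545 counts in S100a16+/- and 1720, 2009 and 2029 in WT. Gm10709 had 688, 729 and 422 counts in S100a16+/- and 653, 644 and 666 in WT. In both, the groups overlapped in counts, and in counts per 1000000 the S100a16+/- means were 0.957 and 0.977 of the WT means.

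The processed pseudogene Gm14036 (99.4% identity), named here after its values were seen, was the exception. It had 47, 35 and 21 counts in S100a16+/- and 789, 1029 and 33 in WT. WT replicates 1 and 2 were at least 16.8 times as high as each other library, while WT replicate 3 lay within the S100a16+/- range.

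Together the 25 copies held 3550, 3431 and 2575 counts in S100a16+/- and 3906, 4678 and 3644 in WT. In the WT libraries Rpl29 itself therefore made up 7.11%, 3.43% and 8.26% of the counts of Rpl29 and its copies, against 74.1%, 73.9% and 71.9% in S100a16+/-. Added together, Rpl29 and its copies had 13684, 13145 and 9176 counts in S100a16+/- and 4205, 4844 and 3972 in WT. The groups still did not overlap. In counts per 1000000, the mean was 176 ± 24.6 against 60.7 ± 5.11 (SD, n = 3), a 2.90-fold ratio, and the log2 change was 1.59 in place of 5.17 (SE 0.14, adjusted p = 0.00800 in edgeR). This addition by sequence was chosen after the data were seen.

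**Figure D1:**
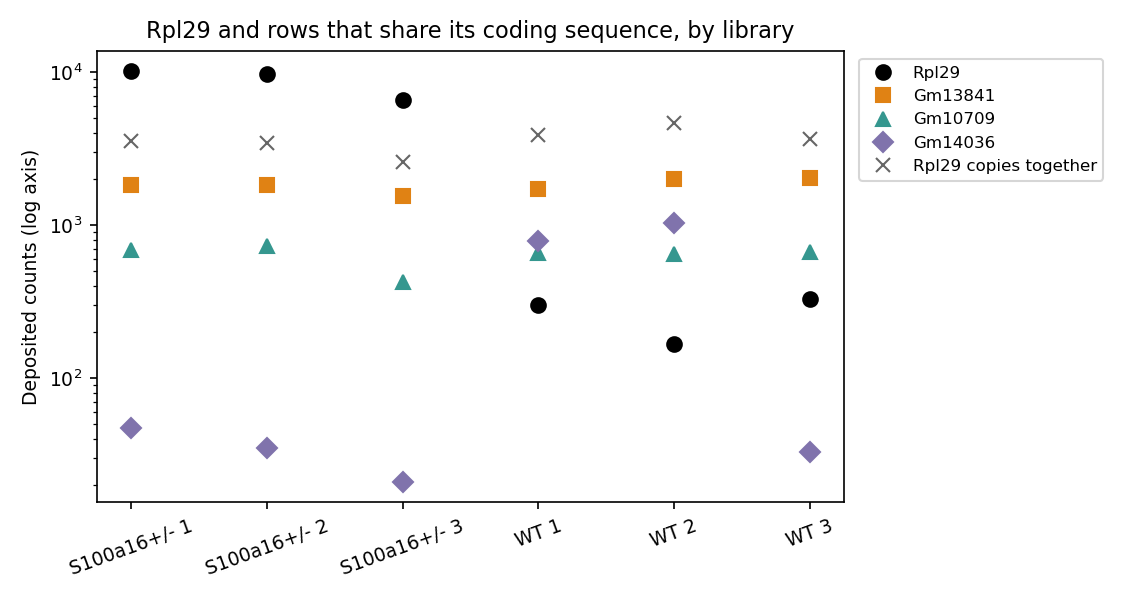
Deposited counts (log axis) of Rpl29, 3 of its processed pseudogenes and all 25 copies together in each library. Rpl29 lies between 6601 and 10134 in S100a16+/- and between 166 and 328 in WT, Gm13841 stays between 1545 and 2029 in all 6 libraries, and Gm14036 is high in WT replicates 1 and 2 only.

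No other ribosomal protein gene was called. Rpl29 was the 1 member called higher and 0 were called lower by edgeR, where 2.85% of the 12766 genes tested were called higher and 1.61% lower (4.46% in all). At an unadjusted p under 0.05 there were 10 members, against 22.0% of all genes, and 8 of the 10 had a lower mean in S100a16+/-. The remaining changes were small. The log2 change was within 0.25 of 0 for 73 members (86.9%) and within 0.5 for 81 (96.4%), against 62.5% and 84.6% of all genes tested.

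The median log2 change of the members was -0.09, with quartiles of -0.16 and -0.01, beside 0.00 for all genes tested. The log2 change was below 0 for 63 members and above 0 for 21. It was -0.09 at the median for the large subunit and -0.10 for the small subunit. In 19 members (22.6%) all S100a16+/- libraries lay below all WT libraries in counts per 1000000 (CPM), against 14.4% of all genes, and in 2 (Rpl29 and Rps19bp1) all lay above, against 15.8% (30.1% both ways).

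**Figure D2:**
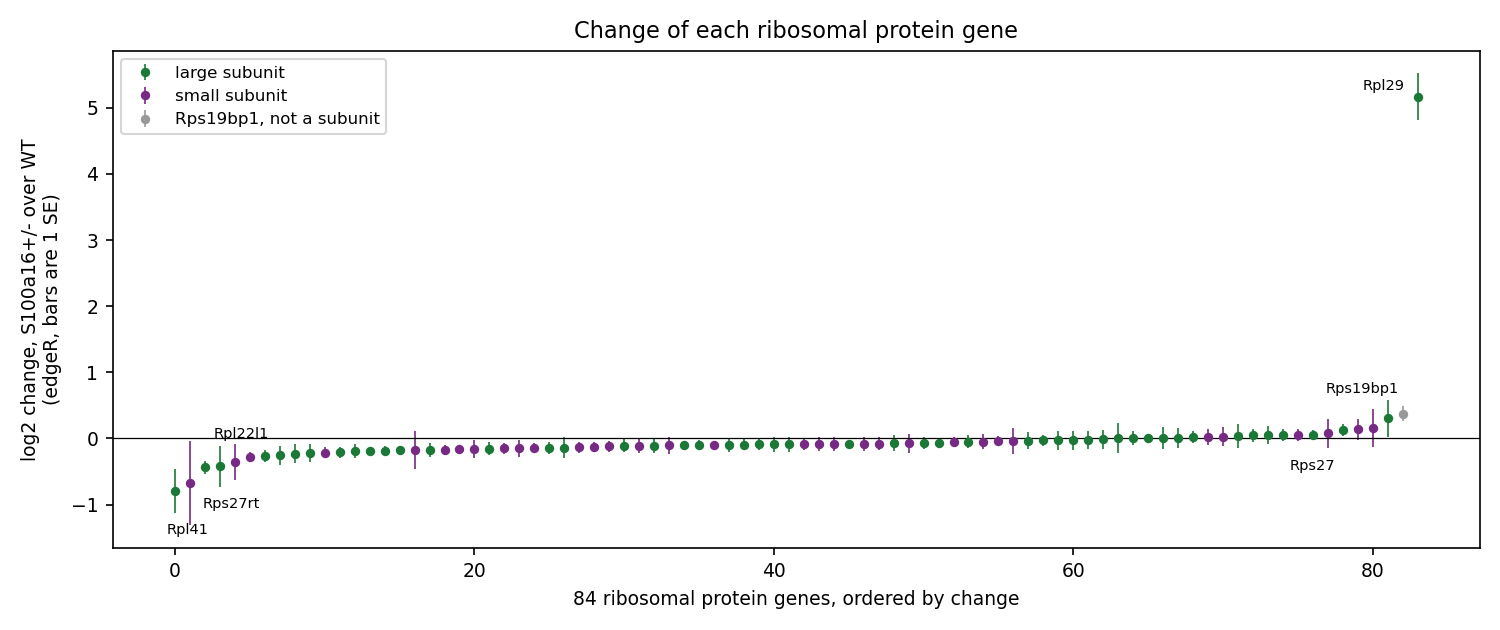
Log2 change (edgeR, S100a16+/- over WT) of each of the 84 genes, ordered by size, with bars of 1 SE and colours for the subunit. Rpl29 stands at 5.17, and all others lie between -0.79 and 0.38.

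Levels differed widely between the 84 genes. The highest was Rplp1, an acidic protein of the P-stalk that recruits elongation factors, with 1366, 1338 and 998 FPKM in S100a16+/- and 1269, 1268 and 1376 FPKM in WT. Rplp0, the base of the stalk, followed with 650, 640 and 550 FPKM against 633, 629 and 636 FPKM. Both were lowest in S100a16+/- replicate 3, and in both the groups overlapped. The next were Rps15, a protein of the 40S head with a mean of 487 FPKM over the 6 libraries, and Rps3a1, a 40S protein at the mRNA exit side with 478 FPKM. Of the 84, 51 had a mean of at least 100 FPKM and 4 a mean under 20 FPKM, namely Rpl21, Rpl22l1, Rps19bp1 and Rpl39l. For Rpl21, 84.1% of the counts of the gene and its copies by sequence lay on the copies, so its FPKM can be read only beside theirs.

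**Figure D3:**
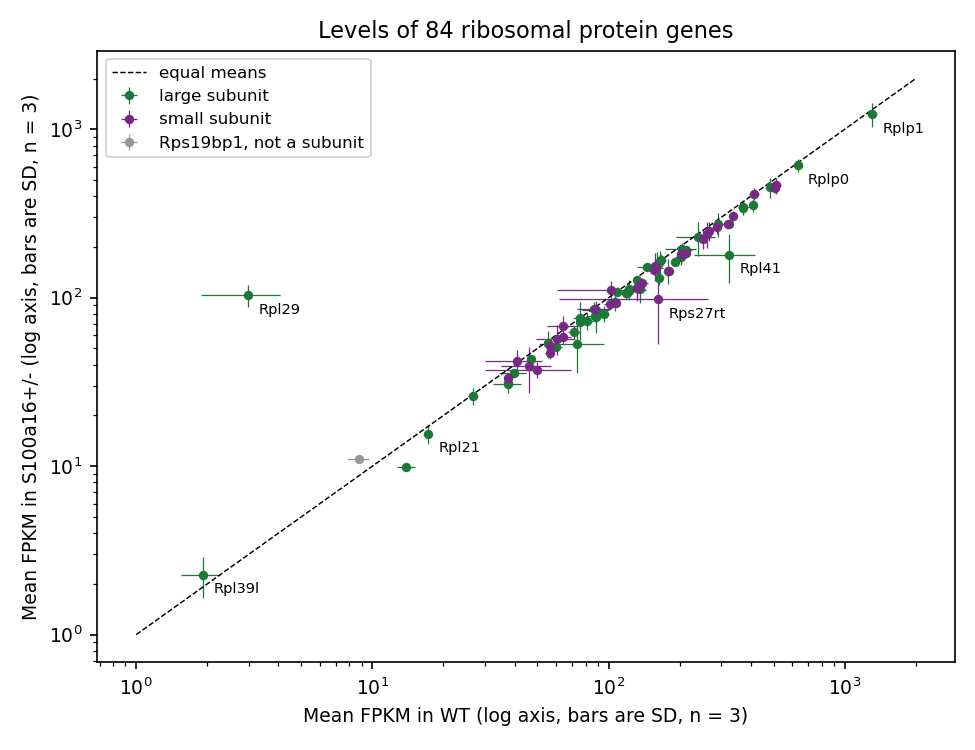
Mean FPKM in S100a16+/- against WT for the 84 genes (log axes, bars are SD, n = 3), coloured by subunit, with a line of equal means. Rpl29 is the gene far from the line, at 104 against 2.98 FPKM, and Rplp1 is the most abundant.

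Members of the stalk and of the 5S particle had small differences in either direction. The log2 changes of the stalk proteins were -0.03 for Rplp1, 0.01 for Rplp0 and 0.05 for Rplp2, and that of Rpl12, which binds at the stalk base, was -0.14. None of the 4 was called by edgeR (lowest adjusted p = 0.673), where 4.46% of all genes tested were called. Rpl5 and Rpl11, which with 5S RNA form the particle that binds Mdm2 when ribosome assembly is disturbed, had log2 changes of -0.10 (SE 0.07) and -0.01 (SE 0.14). Rpl5 was at 110, 110 and 101 FPKM in S100a16+/- and at 117, 121 and 120 FPKM in WT, so that its groups did not overlap, with an edgeR adjusted p of 0.477. Rpl11 was at 90.2, 92.0 and 72.7 FPKM against 93.0, 98.0 and 75.8 FPKM, with overlapping groups.

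Around the peptide tunnel exit, 0 of 8 members were called, where 4.46% of all genes tested were called. Their median log2 change was -0.01. The lowest was Rpl23a, which helps dock the signal recognition particle, at -0.18 (SE 0.06, edgeR adjusted p = 0.155). At the mRNA entry, Rps2 and Rps3 had log2 changes of -0.08 and -0.27. Rps3, described here after its values were seen, is a 40S protein that is also known as a DNA repair endonuclease. It stood at 144, 147 and 140 FPKM in S100a16+/- and at 175, 180 and 184 FPKM in WT. Every S100a16+/- library was below every WT library, with a spread of 3.78 and 4.63 FPKM (SD, n = 3) within the groups. In edgeR the adjusted p was 0.0954 for all libraries and 0.00653, at a log2 change of -0.24, when S100a16+/- replicate 3 was left out. In the 40S beak (Rps10, Rps12, Rps27a) 0 of 3 were called, with a median log2 change of 0.02. In lists this short, 0 calls are no result about the list.

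Paralogs and like-named genes held several of the larger differences. Rpl22l1, a paralog that can replace Rpl22 in the ribosome, was at 9.81, 10.6 and 9.46 FPKM in S100a16+/- and at 13.3, 13.2 and 15.3 FPKM in WT. The groups did not overlap. Its log2 change was -0.43 (SE 0.10) with an edgeR adjusted p of 0.0696, which missed the threshold of 0.05. DESeq2 (adjusted p = 0.00163), limma on log2(FPKM + 1) (adjusted p = 0.0466) and edgeR without S100a16+/- replicate 3 (adjusted p = 0.0265) called it lower. Rpl22 itself, with a log2 change of -0.09 (SE 0.11), stood at 34.8, 37.9 and 35.2 FPKM against 38.8, 35.0 and 45.3 FPKM, and its groups overlapped.

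Rps19bp1, also known as a cofactor of the deacetylase Sirt1, was at 11.6, 10.6 and 10.7 FPKM in S100a16+/- and at 7.98, 8.47 and 9.84 FPKM in WT. All S100a16+/- values were above all WT values, and the log2 change was 0.38 (SE 0.12), with an adjusted p of 0.138 in edgeR and 0.0282 in DESeq2. Rpl39l, a paralog of Rpl39 best known from male germ cells, had the lowest level at 2.80, 2.43 and 1.59 FPKM against 2.32, 1.78 and 1.64 FPKM. Its groups overlapped, with a log2 change of 0.30 (SE 0.28). Rpl7l1, Rpl36al and Rps27l had log2 changes of 0.02, -0.03 and -0.16. Rps4l was outside the name rule, as the table does not give it as protein-coding, and its log2 change was -0.26 (edgeR adjusted p = 0.226).

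After Rpl29, the largest difference was that of Rpl41, the smallest ribosomal protein, a short basic peptide at the interface of the subunits. Its levels were 198, 228 and 116 FPKM in S100a16+/- and 377, 378 and 217 FPKM in WT. WT replicate 3 lay between the S100a16+/- libraries, so the groups overlapped, and the CPM of the WT libraries alone had a coefficient of variation (CV) of 28.6%. The log2 change of -0.79 (SE 0.33) had an edgeR adjusted p of 0.240. By the rule used here, no copy of Rpl41 was found by sequence. The search took an annotated coding sequence of 138 bases and required a match over most of it. A copy of a shorter coding sequence could be missed, so this search cannot decide whether Rpl41 has copies.

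Rps27 and Rps27rt share a coding sequence, and their counts differed widely between libraries. Rps27, a zinc-finger protein of the 40S subunit, lies on chr3:90212522-90213648, minus strand, in the table, and its retrogene Rps27rt, a member in its own right, on chr9:114982366-114982739, minus strand. Their coding sequences in GENCODE M21 (GRCm38) were identical over all 252 bases, so the run printed here stands for both.
Rps27: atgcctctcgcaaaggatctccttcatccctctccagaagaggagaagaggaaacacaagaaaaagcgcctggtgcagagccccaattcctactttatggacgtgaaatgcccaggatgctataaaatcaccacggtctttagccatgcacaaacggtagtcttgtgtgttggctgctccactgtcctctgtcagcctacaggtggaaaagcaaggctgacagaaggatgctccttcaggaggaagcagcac

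Rps27 had 9926, 7572 and 8402 counts in S100a16+/- and 5828, 13352 and 6745 in WT. Rps27rt had 2423, 4304 and 1613 counts in S100a16+/- and 5862, 1467 and 6827 in WT. In WT replicate 2 Rps27 was highest and Rps27rt lowest, and in WT replicates 1 and 3 Rps27 was lowest and Rps27rt highest. Their sum varied less, at 12349, 11876 and 10015 counts in S100a16+/- and 11690, 14819 and 13572 in WT. Scaled to CPM, the sum was 174.2, 169.5 and 161.6 in S100a16+/- and 177.4, 194.2 and 187.3 in WT, and the groups did not overlap. In CPM, the CV among WT libraries was 41.0% for Rps27, 62.0% for Rps27rt and 4.53% for the sum. The separate log2 changes, 0.16 (SE 0.29) for Rps27 and -0.67 (SE 0.64) for Rps27rt, were both uncalled, and the sum was 168 ± 6.37 CPM in S100a16+/- against 186 ± 8.44 CPM in WT (SD, n = 3), a ratio of 0.904.

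**Figure D4:**
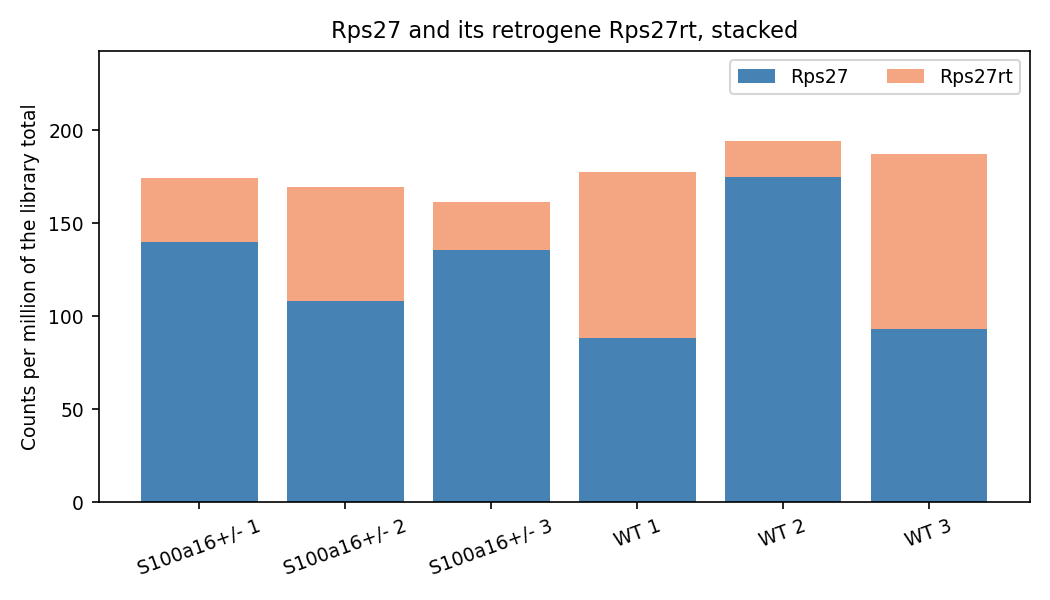
Counts per 1000000 (CPM) of the library total for Rps27 and its retrogene Rps27rt, stacked, in each library. The share of each differs between libraries, from 19.2 CPM of Rps27rt in WT replicate 2 to 94.2 CPM in WT replicate 3, while the stacks stay between 162 and 194 CPM.

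Most members had copies by sequence. Outside the family, 547 genes in the table were copies, each assigned to the 1 member it matched best. They fell to 72 members, and 12 members had none assigned. Rps27rt is among the 12 because copies that match it and Rps27 equally were assigned to Rps27. Rpl37, named here after its values were seen, is another. Rpl37rt matched its whole coding sequence at 99.7% identity, but the match made up 42.7% of the Rpl37rt transcript, under the 50% required. How reads were placed between a member and its copies was not tested. The copies held a median of 7.52% of the counts of a member and its copies, and more than those of the member itself for Rpl21 (84.1%), Rpl7a (78.4%), Rpl17 (74.5%) and Rps12 (55.4%). Adding copies lowered the number of members with a WT CV above 20% from 8 to 5, and the median CV from 4.93% to 4.61%. Rpl7a, a large-subunit protein, was at 71.5, 48.5 and 38.3 FPKM in S100a16+/- and at 54.0, 67.5 and 98.2 FPKM in WT, and its WT CV in CPM was 31.1% alone and 5.58% with its copies. Its log2 change moved from -0.42 (SE 0.31) to -0.18 (SE 0.10), uncalled by edgeR both ways. The CV of Rps13, chosen here after its values were seen, moved from 24.1% to 4.25%. With copies added, 1 member (Rpl29) was called by edgeR, where 4.65% of 12430 genes were called (2.98% higher, 1.67% lower), and the median log2 change of the members was -0.09.

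Across libraries the family was lowest in S100a16+/- replicate 3. The members took 2.46%, 2.43% and 2.08% of all counts in S100a16+/- replicates 1 to 3 and 2.49%, 2.59% and 2.65% in WT. The groups did not overlap, at 2.32% ± 0.211 against 2.58% ± 0.0833 (SD, n = 3), but S100a16+/- replicates 1 and 2 lay just below the lowest WT library. The median log2 ratio of CPM to the WT mean was -0.01, -0.02 and -0.26 in S100a16+/- and -0.05, -0.01 and 0.05 in WT. In S100a16+/- replicate 3, 68 of the 84 members (81.0%) had their lowest CPM, as did 26.8% of all genes tested. The large and the small subunit had like medians there, at -0.27 and -0.26. Lists outside the family were low there too, with medians of -0.28 for other TOP mRNAs, -0.29 for elongation factors and -0.26 for chaperones of ribosomal proteins. The first 2 lists share genes, and the median log2 change between genotypes was -0.13 in each. In the same library the median was -0.12 for ribosome biogenesis genes, -0.12 for the p53 arm, -0.05 for initiation factors, -0.03 for mitochondrial ribosomal proteins and 0.05 for regulators of ribosomal protein synthesis.

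Without S100a16+/- replicate 3 the median log2 change of the members was -0.02 in place of -0.09. Then edgeR called 4 members higher (Rpl29, Rpl30, Rpl35, Rplp2) and 3 lower (Rpl22l1, Rpl23a, Rps3), in a fit where 15.8% of all genes were called higher and 16.4% lower (32.2% in all). Apart from Rpl29, at a log2 change of 5.30, these changes lay between -0.39 (Rpl22l1) and 0.19 (Rpl35).

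**Figure D5:**
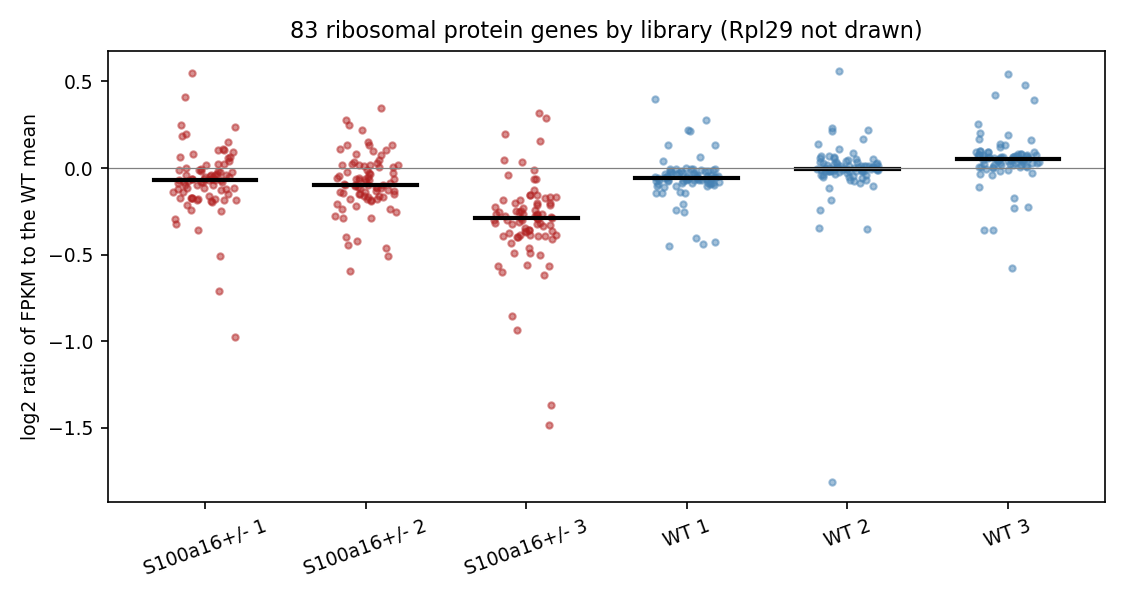
Log2 ratio of FPKM to the WT mean for 83 genes in each library, with Rpl29 not drawn; points are genes and black lines are medians. The median is -0.29 in S100a16+/- replicate 3, -0.07 and -0.10 in the other S100a16+/- libraries, and between -0.06 and 0.05 in WT.

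The start of the mRNA was examined in the RefSeq promoter sequences (GRCm38.p6), where 75 promoters of 64 members were found. A run of at least 6 bases of C or T that covers the annotated start, read on the strand of the gene, was present in 20 of the 75 (26.7%) and in 7.25% of all 32851 promoters of the same length. The windows of Rps6, the 40S protein phosphorylated by S6 kinase, Rpl28 and Rpl31 are shown from 40 bases before the start, with the run in capitals, because they show the tract in members of both subunits. They lie on chr4:86857358-86857407 (minus strand), chr7:4792925-4792974 (plus strand) and chr1:39367811-39367860 (plus strand).
Rps6: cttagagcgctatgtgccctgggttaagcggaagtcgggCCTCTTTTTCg
Rpl28: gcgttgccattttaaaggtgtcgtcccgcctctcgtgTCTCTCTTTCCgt
Rpl31: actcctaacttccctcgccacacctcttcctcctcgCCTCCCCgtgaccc

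The 3 genes with these tracts differed in how their groups lay. Rps6 was at 275, 281 and 265 FPKM in S100a16+/- and at 305, 316 and 337 FPKM in WT, with groups that did not overlap. Rpl28 was at 169, 158 and 161 FPKM against 183, 199 and 191 FPKM, also without overlap. Rpl31 was at 175, 176 and 150 FPKM against 160, 167 and 175 FPKM, with overlapping groups. Their log2 changes were -0.17, -0.18 and 0.05, none called by edgeR. Exons of Rpl28 overlap those of Ube2s, whose counts over all libraries were at least 10% of those of Rpl28. The same held for 6 other members and other genes. The sources used here do not say whether the authors counted by strand.

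Ribosome genes outside the name rule had small differences. Fau, which encodes Rps30 fused to a ubiquitin-like protein, and Rack1, a scaffold on the 40S head, had log2 changes of 0.05 and -0.07, and edgeR called neither. Among 78 mitochondrial ribosomal proteins, which build the separate ribosome of that organelle, edgeR called 0, where 4.46% of all genes tested were called. Their median log2 change was 0.06. Without S100a16+/- replicate 3, 9 of the 78 were called higher and 0 lower, where 15.8% of all genes were called higher and 16.4% lower.

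The lists of factors that work with the ribosome held 3 called genes, all lower in S100a16+/-, where 4.46% of all genes tested were called and 1.61% were called lower. These few calls are no result about the lists. Among 7 elongation factors and their regulators 1 was called, Eef2k, the kinase that inhibits elongation factor 2, at 2.73, 2.45 and 2.27 FPKM in S100a16+/- and 4.02, 3.95 and 3.78 FPKM in WT (log2 change -0.61, edgeR adjusted p = 0.0351). Among 35 initiation factors, and also among 19 other TOP mRNAs, the call was Eif4b, a cofactor of the helicase eIF4A, at 70.6, 68.4 and 69.6 FPKM against 87.6, 88.9 and 91.9 FPKM (log2 change -0.31, edgeR adjusted p = 0.0475). In both genes every S100a16+/- library was below every WT library.

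Among 45 ribosome biogenesis genes, also beside 1.61% of all genes called lower, 1 was called, Nmd3, the export adaptor of the 60S subunit, at 2.14, 2.32 and 2.10 FPKM against 3.14, 3.11 and 3.11 FPKM (log2 change -0.46, edgeR adjusted p = 0.0367), also without overlap. The edgeR calls of Eef2k, Eif4b and Nmd3 were lost when any library other than S100a16+/- replicate 3 was left out, while their log2 changes stayed below 0. EdgeR called 0 of 6 chaperones of ribosomal proteins, 0 of 15 regulators of their synthesis (Myc, mTOR and others) and 0 of 6 genes of the p53 arm (Mdm2, Trp53 and others), with medians of -0.07, 0.03 and -0.05.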

How the data were processed

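The 84 genes and the gene lists were chosen with earlier results of these data known. The authors deposited whole-number counts and FPKM values per gene and library, per the file headers. For alignment and quantification the submitters' processing notes list HISAT2 2.0.4 and StringTie 1.3.4d among other tools, with no roles; the build, the use of strand and the counting of reads with several matches are not stated in the sources at hand. The table coordinates of 71 of the 84 genes were the same as in GENCODE M21. Where the count was 0, the deposited FPKM was 0.0001.

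The FPKM minimum of the members was also that for testing. The test was edgeR 4.0.16 quasi-likelihood (R 4.3.3) on the deposited counts, TMM-scaled and fitted by genotype alone. P-values were adjusted by Benjamini-Hochberg across the whole set, and a call needed an adjusted p under 0.05. SE was taken as the absolute log2 change over the root of F. The steps were tested on simulated data. Copies were found with BLAST 2.17.0, on the same strand and over at least 50% of the transcript of the copy, and added as an alternative chosen after the data were seen. The others were DESeq2 1.42.0, limma 3.58.1 on log2(FPKM + 1) and pseudocounts of 0.1 and 5, scalings, filters, a replicate block and each library left out in turn.

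Genes were named by rule: Rpl29 and its copies, called members, the 4 most abundant members, the 4 largest changes each way, members of the 5S particle, stalk and paralog lists, Fau, Rack1, up to 3 called genes of each other pathway list and S100a16. Others are said to be chosen after their values were seen or stand for the list that holds them. A further gene that the rule names is not reported here.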

Additional observations from a re-analysis of the deposited data

How the results depend on the processing

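The sign of Rpl29 was positive in all alternatives run, with log2 changes from 1.59 (copies added by sequence) through 3.77 (limma with a pseudocount of 5) to 5.33 (without WT replicate 1). The block by replicate number was the fit in which it was no longer called (5.22, edgeR adjusted p = 0.0722). Same-numbered libraries did not deviate together (correlations of -0.14, 0.04 and -0.05). With 3 libraries a group and S100a16+/- replicate 3 apart, these correlations cannot decide whether the numbers pair the samples. With the block, edgeR called 0 genes, 0 members and 0 genes of the other lists. DESeq2 called 1888 of the 12766 genes, 5 of the 84 members (Rpl29, Rps3, Rpl22l1, Rpl23a, Rps19bp1) and 14 genes of the other lists. limma called 2 of the 84 members (Rpl29 and Rpl22l1) at each of 3 pseudocounts, beside 507 of the 12766 genes on log2(FPKM + 1). With no filter on low values edgeR called 243 genes and 0 of the other lists. Leaving out 1 library gave from 32 to 4115 of the 12766 genes, from 1 to 7 of the 84 members and from 0 to 38 genes of the other lists. The highest each time came without S100a16+/- replicate 3. These counts of members are no result about the family. Of 570 genes called in all, 364 were higher, against 282 of 534 with library totals alone and 260 of 507 with limma on log2(FPKM + 1). The median log2 change of the members stayed below 0, from -0.14 (library totals alone) to -0.02. Of 465 values of named genes under the alternatives, 430 kept their side of the threshold, 28 lost a call and 7 gained it. With 3 libraries a group and 1 that stands apart, the precision limits what small changes can be detected, and sequence shared with copies limits what the counts of a single gene can show.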
